A study of Mus musculus with 670 samples.

Results

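The 9 genes described here (H2-D1, H2-K1, B2m, Tap1, Tap2, Tapbp, Psmb8, Psmb9 and Nlrc5) carry out or control the display of peptides on major histocompatibility complex (MHC) class I molecules. They were taken as the rows of those symbols in the table of expected counts, and all 9 were found among its 55604 gene rows. The cells are skeletal stem cells by label, sorted by flow cytometry from digested long bones of male mice, not cultured and not treated, and read one by one with SmartSeq2, which covers whole transcripts. The 670 wells comprise 95 of postnatal day 3 (plate 9), 96, 96 and 95 of 2 months (plates 1, 3 and 4) and 96 on each plate of 24 months (plates 2, 5 and 12). Strain, genotype, sort markers and animals are not in the labels. Each age is therefore a single sample here without any p-value, and the spread over plates is descriptive and may be technical.

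Class I molecules show fragments of a cell's own proteins to CD8 T cells and natural killer cells, and almost every nucleated cell carries some of them. A heavy chain (H2-D1 and H2-K1 are the classical ones in the mouse) pairs with the light chain B2m. Peptides are cut by the proteasome, in which Psmb8 and Psmb9 can replace standard catalytic subunits, are carried into the endoplasmic reticulum by the transporter made of Tap1 and Tap2, and are loaded with the help of Tapbp (tapasin). Nlrc5 is a transactivator of class I promoters, and interferons raise the whole set in most cell types.

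Of the 9 genes, 7 lie on chromosome 17 of GRCm38, within 1.35 Mb of the MHC (33915899 to 35267499). H2-K1 occupies 33996017 to 34000347 on the minus strand and H2-D1 35262730 to 35267499 on the plus strand. B2m is on chromosome 2 (122147686 to 122153083) and Nlrc5 on chromosome 8 (94434356 to 94527272), both on the plus strand. All 9 are annotated as protein-coding.

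The promoters of H2-D1, H2-K1 and B2m are shown because these genes share a direction between postnatal day 3 and 2 months. Their means were also higher at 24 than at 2 months, but only for H2-D1 did the plates of these ages not overlap. RefSeq promoter windows for GRCm38.p6 were given for 7 of the 9 genes (H2-D1, H2-K1, B2m, Tap1, Tapbp, Psmb8 and Psmb9). In the 250 bases before the start, capitals mark the NF-kappaB-like motif GGGATTCCC and the interferon response motifs GAANNGAAA and GAAANNGAA, which were searched on both strands.
H2-D1, chr17:35262923-35262952, plus strand: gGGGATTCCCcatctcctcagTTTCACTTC
H2-K1, chr17:34000429-34000458, minus strand: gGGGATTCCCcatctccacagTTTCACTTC
B2m, chr2:122147532-122147581, plus strand: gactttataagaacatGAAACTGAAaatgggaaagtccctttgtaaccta

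The windows end at the RefSeq starts. The GENCODE span of H2-D1 given above begins further upstream, at 35262730, so its stretch lies before the RefSeq start but inside that span. The stretches of H2-D1 and H2-K1 were identical at 29 of 30 bases, with the substitution T18A from H2-D1 to H2-K1, counted from 1 at the left end. The exact sequence GGGATTCCC, for which no variant was searched, was found in 99 of 32851 promoter windows (0.301%), and among the 7 genes only in these 2. GAANNGAAA, which the same windows hold on the opposite strand, was present in 6.31% of windows, and GAAANNGAA, found in B2m, in 7.13%. The letters of these motifs can overlap each other. The cyclic AMP response core TGACG stood in 5 of the 7 windows (H2-D1, H2-K1, B2m, Tap1 and Psmb9) against 17.8% of all. These are matches of letters and no binding was measured.

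The heavy chains also share transcript sequence, untranslated parts included. Of the distinct 50-base stretches of H2-D1 transcripts, 12.8% occurred in transcripts of another gene on either strand, with H2-Q1, H2-K1 and H2-Q7 sharing most, and for H2-K1 the share was 9.63%. B2m shared none. Among the values above 0, 17.8% of those of H2-D1 and 20.6% of those of H2-K1 were not whole numbers (tolerance 0.001), against 15.2% over all genes and 0% for B2m. Reads common to near-identical genes are split by the estimation, so the division between heavy chains is uncertain, while their sum is less so. Tap1 and Psmb9 overlap on opposite strands, and 4.19% of the 50-base stretches of Psmb9 were shared with Tap1, but strandedness of the counting is not given in the sources used here.

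Cells were kept at 1000 or more genes and 50000 or more gene reads with a mitochondrial share below 20%, which left 68 at postnatal day 3, 15, 70 and 69 at 2 months (plates 1, 3 and 4) and 15 at 24 months (5 on each plate). Their median depths were 1.10, 0.678 and 2.73 M gene reads (M for mega) with 2234.5, 1744.5 and 1134 genes, in the order of age, so the 24-month cells held fewest genes at the greatest depth. No index pair was shared between wells. Blood cell markers were low in the passing cells. At 24 months 0 of 14 had a read in any of 15 cells (up to 20% of cells could hold one), at postnatal day 3 the list summed to 4.29 CPM (reads of a gene in 1000000 gene reads) and at 2 months to 2.68 to 32.96 CPM per plate, with a read of at least 1 marker in 18.2% of the 2-month cells and 5.88% of those of postnatal day 3. Ptprc, the pan-leukocyte CD45, was at 0 at postnatal day 3 and 24 months and at 0.917 CPM at 2 months. Endothelial markers summed to at most 3.87 CPM on any plate, and 0 of 6 had a read at 24 months. The make-up of the skeletal cells differed with age. The 10 cartilage markers summed to 66247 to 89103 CPM per plate at 2 months and to 2858 to 11599 CPM at 24 months, while the 6 marrow stroma markers summed to 0.340 to 198.8 CPM at 2 months and to 4759 to 23161 CPM at 24 months. At postnatal day 3 these lists summed to 82328 and 404 CPM. The 8 fibroblast markers summed to 45599 CPM at postnatal day 3, 6525 to 17870 CPM at 2 months and 24549 to 47405 CPM at 24 months, and the 8 osteoblast markers to 1125, 7417 to 19335 and 6472 to 20429 CPM. The part of this make-up in the differences between ages was not tested beyond the split by Cnmd.

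H2-D1, the classical heavy chain of the D region, was the member with the highest mean level at every age, also per kilobase. On the 24-month plates 2, 5 and 12 its level in summed cells was 3646, 7706 and 2772 CPM. On the 2-month plates 1, 3 and 4 it was 690, 931 and 444 CPM, and on the postnatal day 3 plate it was 186.7 CPM. The ages stood in one order with no overlap between plates, the lowest 24-month plate lying 2.98 times above the highest 2-month plate. The mean at 24 months was 4708 CPM ± 2633 (SD, n = 3 plates) against 688 CPM ± 243.3 at 2 months (n = 3), a log2 difference of 2.77. Against postnatal day 3 the 24-month mean was 4.65 higher on the log2 scale and the 2-month mean 1.88 higher.

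The higher level of H2-D1 at 24 months was carried by most cells rather than by one. Of 15 cells, 13 held it, at 616 to 14244 CPM with a median of 4697 CPM, and no cell gave more than 38.8% of a plate's H2-D1 reads. At 2 months 70 cells (45.5%) held it at a median of 903 CPM, and at postnatal day 3 18 of 68 cells at a median of 523 CPM. With each cell thinned to 50000 reads, 86.7% of 24-month cells had at least 1 H2-D1 read (exact 95% binomial interval 59.5% to 98.3%). The shares were 38.96% at 2 months (31.2% to 47.1%) and 25% at postnatal day 3 (15.3% to 36.98%), and those without thinning were 86.7%, 45.5% and 26.5%. The interval of 24 months lay above both others, which overlapped each other. The intervals cover counting error only, and reads without molecular identifiers are not independent molecules. Within 2 months the thinned share was 13.3% on plate 1, 51.4% on plate 3 and 31.9% on plate 4.

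**Figure D1:**
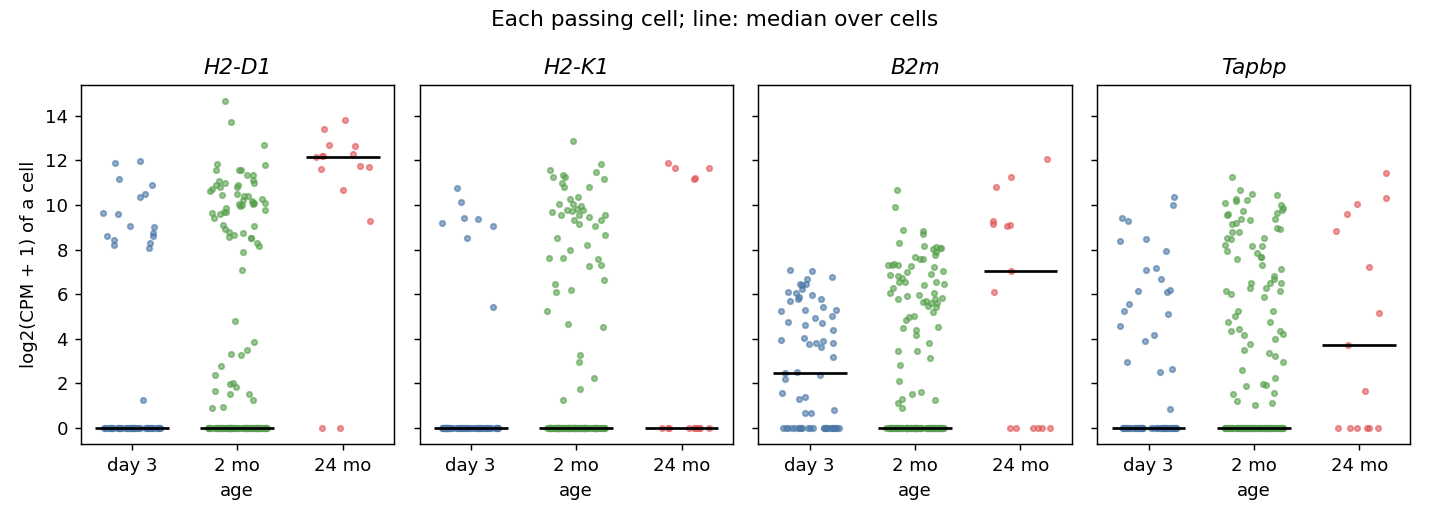
Level of H2-D1, H2-K1, B2m and Tapbp in each passing cell as log2(CPM + 1), by age, with a line at the median over cells (1 plate of 68 cells at postnatal day 3, 3 plates at 2 months, 15 cells at 24 months). For H2-D1 the 24-month cells lie near the top with 2 at 0, whereas the medians of both younger ages are 0 and their positive cells reach into the same range.

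The size rule used for all genes asks for at least 10 CPM at the higher age, means at least 2-fold apart with 1 CPM added, and no overlap between the plates of the ages. H2-D1 met it as higher at 24 than at 2 months, as lower at postnatal day 3 than at 2 months and as higher at 24 months than at postnatal day 3. The first call and the third held under every alternative tried for H2-D1 (20 and 18 of them), with log2 differences of 1.39 to 3.05 and 2.64 to 4.97. The second was lost when cells were weighted equally (-1.08) or thinned before summing (-1.07) and among cells of 1000 to 1700 genes (-0.43).

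H2-K1, the classical heavy chain of the K region, was divided among the passing cells of the 24-month plates. Its level was 1562 CPM on plate 2, 881 CPM on plate 5 and 0 on plate 12, where none of 5 cells had a read. At 2 months it was 623, 254.01 and 379 CPM on plates 1, 3 and 4, and at postnatal day 3 it was 60.1 CPM. The postnatal day 3 plate lay below all 2-month plates, 4.22 times under the lowest, and met the size rule as lower (log2 difference -2.78). The 24-month plates lay on both sides of the 2-month plates, so that comparison did not meet the rule (0.96), but without plate 12 it did, at 1.54. The place of plate 12 depended on the cell filter. With wells of at least 500 genes, H2-K1 was at 1019, 1578 and 1811 CPM on plates 2, 5 and 12, and the ages overlapped. With all wells it was at 1455, 1687 and 2013 CPM, and 24 months met the rule as higher than 2 months. Among the passing cells, the 5 positive ones of 24 months held 2290 to 3837 CPM, a narrow range, and all 5 also held H2-D1 and B2m.

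B2m, the light chain common to all class I heavy chains, followed the same plates. It stood at 1395, 570 and 45.7 CPM on the 24-month plates 2, 5 and 12, at 86.7, 63.6 and 44.7 CPM on the 2-month plates 1, 3 and 4, and at 26.2 CPM at postnatal day 3. Plates 2 and 5 lay above every 2-month plate and plate 12 among them. B2m therefore met the size rule as lower at postnatal day 3 than at 2 months (log2 difference -1.28) and as higher at 24 months than at postnatal day 3 (4.63), whereas 24 against 2 months overlapped (3.35). Without plate 12 that comparison met the rule at 3.90, and so it did with wells of at least 500 genes at 3.07. On plate 2, 1 cell gave 65.5% of the B2m reads, and over all 24-month cells 53.4%. The thinned share of cells with B2m was 33.8% at postnatal day 3 (22.8% to 46.3%) and 33.1% at 2 months (25.8% to 41.1%), and without thinning 63.2% and 43.5%. The median of the positive cells was 25.98 CPM at postnatal day 3 and 77.7 CPM at 2 months, so the lower level at postnatal day 3 did not go with a smaller share of cells. At 24 months 9 of 15 cells held B2m (32.3% to 83.7%), with a median of 564 CPM.

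**Figure D2:**
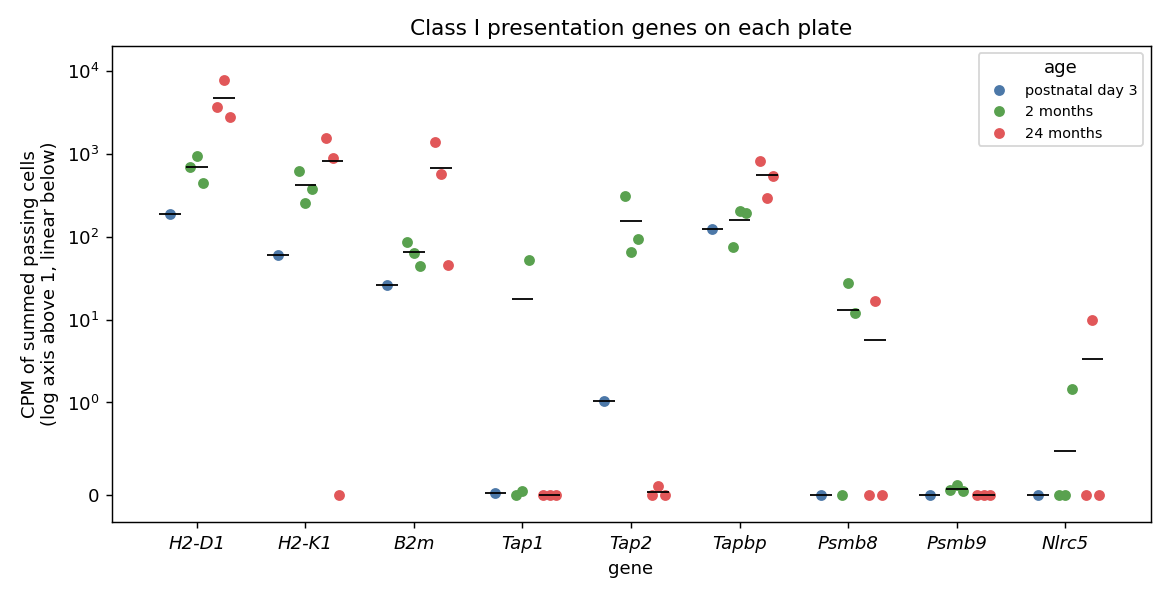
CPM of each member in the summed passing cells of each plate (1 point per plate; 1 plate at postnatal day 3, 3 at each other age), with a line at the mean; the axis is logarithmic above 1 CPM and linear below. H2-D1 separates all 3 ages, H2-K1 and B2m are spread over the 24-month plates with plate 12 lowest, and Tap1, Psmb8, Psmb9 and Nlrc5 are at or near 0 on most plates.

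Summing the 27 rows of class I heavy chains removes the division of reads among these rows. Reads shared with genes outside the sum, such as Gm7030, Gm11127 and Gm8909 for H2-D1, can still be divided. The sum was 6810, 9147 and 2776 CPM on the 24-month plates 2, 5 and 12, 1313, 1219 and 923 CPM on the 2-month plates 1, 3 and 4, and 311 CPM at postnatal day 3. It met the size rule in the same directions as H2-D1, with log2 differences of 2.44 for 24 against 2 months, -1.88 for postnatal day 3 against 2 months and 4.32 for 24 months against postnatal day 3. Among the passing cells, H2-D1 made up 99.9% of the sum on plate 12, 84.2% on plate 5 and 53.5% on plate 2, and 48.1% to 76.3% on the 2-month plates. The ranges of this share at 2 and 24 months overlapped, and the 60.02% at postnatal day 3 lay within both.

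**Figure D3:**
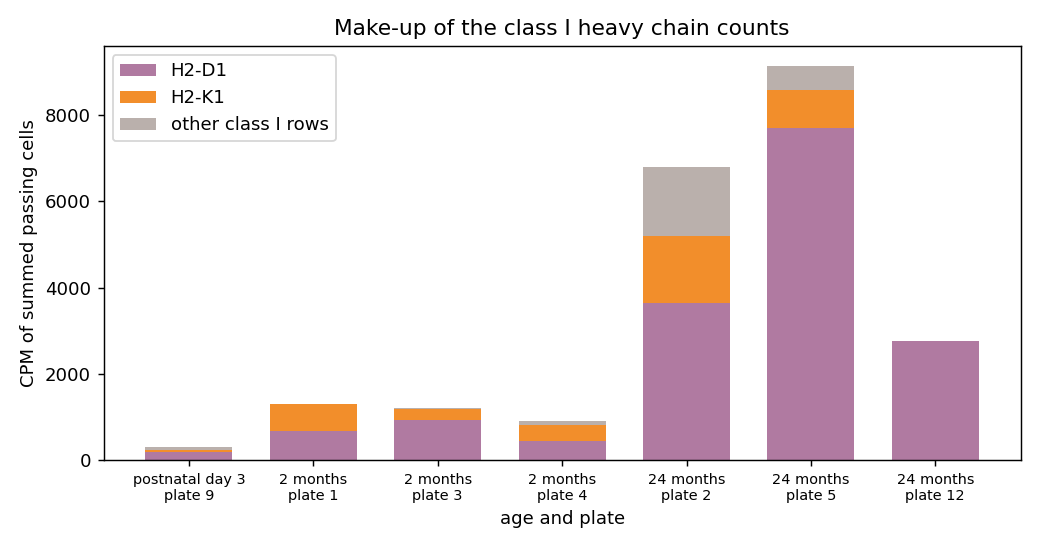
Stacked CPM of H2-D1, H2-K1 and the other class I heavy chain rows in the summed passing cells of each plate, in order of age. The 24-month bars reach 6810, 9147 and 2776 CPM, all above the 2-month bars of 923 to 1313 CPM, and the bar of plate 12 is H2-D1 almost alone.

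Heavy and light chain were found together in the largest share of cells at 24 months. In thinned cells, H2-D1 or H2-K1 with B2m occurred in 8 of 15 cells at 24 months (53.3%, 26.6% to 78.7%), in 31 at 2 months (20.1%, 14.1% to 27.3%) and in 8 of 68 at postnatal day 3 (11.8%, 5.22% to 21.9%). The first 2 intervals overlap slightly, while those of 24 months and postnatal day 3 do not. Neither chain was seen in 6.67%, 32.5% and 41.2% of cells in the same order. Over cells of one plate the members were only weakly related, with points that share a library and differ in depth. Spearman's rho of H2-D1 with H2-K1 was 0.31 on plate 3 (70 cells), 0.04 on plate 4 (69 cells) and -0.22 on plate 9 (68 cells), and with B2m it was 0.25, 0.01 and -0.02. At postnatal day 3, 0 of 17 cells with H2-D1 also held H2-K1 (which allows up to 17.6%), against 8 of 51 cells without it. Of 1121 genes compared, those most like the summed H2-D1, H2-K1 and B2m over cells of plates 3, 4 and 9 reached a mean rho of only 0.22 to 0.26, led by Col3a1, a fibrillar collagen, with Sat1, Plec and Sptbn1 also among the first 5; 1 row among them bears a number in place of a name and is left out.

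Tapbp, which holds the empty heavy chain by the peptide transporter, was at 822, 289 and 546 CPM on the 24-month plates, at 75.6, 206.7 and 195.3 CPM on the 2-month plates and at 123.1 CPM at postnatal day 3. The lowest 24-month plate lay 1.40 times above the highest 2-month plate, and the size rule was met for 24 against 2 months (log2 difference 1.79) and for 24 months against postnatal day 3 (2.16). Tapbp was found in 9 of the 15 cells at 24 months. A single cell gave 97.05% of its reads on plate 2 and 97.07% on plate 5, whereas on plate 12 4 of 5 cells held it, at a median of 614 CPM, and the highest gave 57.4%. The cell of plate 2 held no H2-D1, H2-K1 or B2m. The call for 24 against 2 months was lost with wells of at least 500 genes (0.08) and with all wells (0.36), and the sign turned among cells of at least 2000 genes (-0.73), of which 24 months had 1. Thinned shares of cells with Tapbp were 53.3% at 24 months (26.6% to 78.7%), 37.7% at 2 months (29.99% to 45.8%) and 26.5% at postnatal day 3 (16.5% to 38.6%), with overlapping intervals.

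Both transporter subunits were rare. Tap2 was found in 11 cells at 2 months, at 310, 65.2 and 94.2 CPM on plates 1, 3 and 4, in 1 of 68 cells at postnatal day 3 (1.05 CPM) and with 1 read in 1 of 15 cells at 24 months. It met the size rule as lower at both other ages than at 2 months. Between 89.6% and 99.98% of the 2-month reads of a plate came from 1 cell, and the thinned share of 5.84% (2.71% to 10.8%) overlapped those of 24 months (6.67%, 0.169% to 31.9%) and postnatal day 3 (1.47%, 0.0372% to 7.92%), so a difference in the share of cells was not detectable at this number of cells. Tap1 had reads in 5 cells at 2 months, 52.6 CPM on plate 4 and at most 0.0353 CPM on the others, 1 read at postnatal day 3 and 0 of 15 cells at 24 months.

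The immunoproteasome subunits and the transactivator were at the edge of detection. Psmb8 was found in 2 cells at 2 months (0, 27.4 and 11.9 CPM on plates 1, 3 and 4), in 1 of 15 at 24 months (0, 16.9 and 0 CPM on plates 2, 5 and 12) and in 0 of 68 at postnatal day 3, which allows up to 4.41% of cells. Psmb9 had 9 reads in 3 cells at 2 months and 0 at the other ages. Nlrc5 had reads in 1 cell at 2 months (1.44 CPM on plate 4) and in 1 at 24 months (9.98 CPM on plate 5), and none at postnatal day 3. The single 24-month cell with Nlrc5 (40.8 CPM) was also the one with Psmb8 (69.03 CPM), and it held 10788 CPM of H2-D1.

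**Figure D4:**
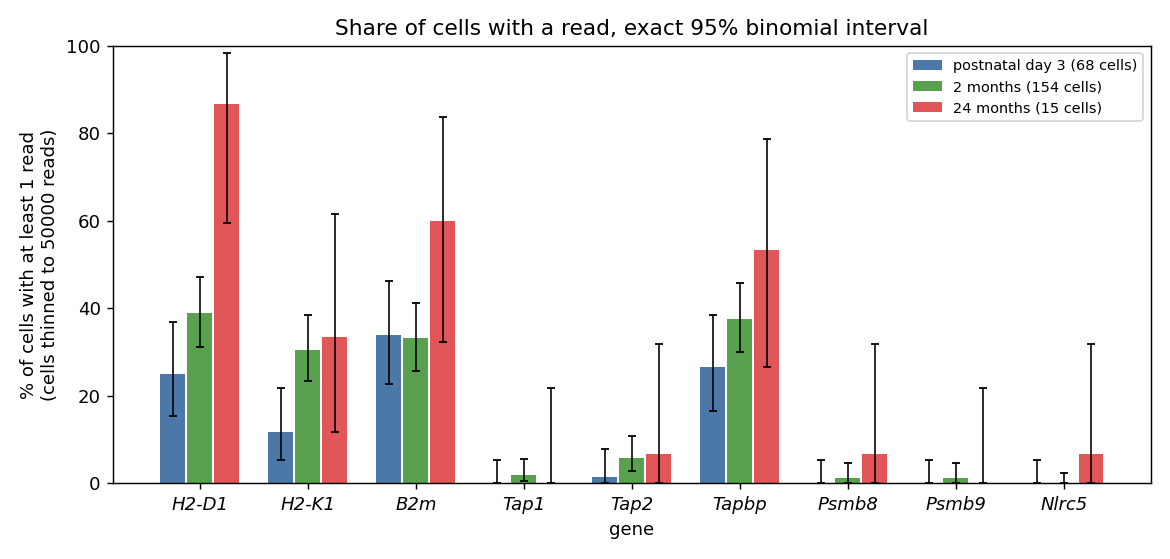
Share of passing cells with at least 1 read of each member after thinning to 50000 reads, by age, with exact 95% binomial intervals (68 cells at postnatal day 3, 15 at 24 months and 3 plates of cells at 2 months). H2-D1 at 24 months (86.7%) is the one bar whose interval lies above those of both younger ages, and Tap1, Tap2, Psmb8, Psmb9 and Nlrc5 stay under 7% at every age.

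Per kilobase of merged exons, the level of the mean at 24 months was 1825 CPM for H2-D1, 779 CPM for B2m, 277.1 CPM for H2-K1 and 152.3 CPM for Tapbp. At 2 months the order was H2-D1 (266.8 CPM per kilobase), H2-K1 (142.4), B2m (75.6), Tapbp (43.9) and Tap2 (41.4), and at postnatal day 3 it was H2-D1 (72.4), Tapbp (33.9), B2m (30.4) and H2-K1 (20.5). The ranges over plates of neighbours in these orders overlapped at 2 months and at 24 months.

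Counted together, 7 of the 9 members reached 10 CPM at either age for 24 against 2 months, and 2 of them met the rule as higher (H2-D1 and Tapbp) and 1 as lower (Tap2). Over all 8804 genes at that level, 1.54% met it as higher and 29.6% as lower, and the median log2 difference was -1.56 against 0.96 for the members. The median of all genes depended on the filters. It was -0.11 with wells of at least 500 genes and -0.02 with all wells, where 17.5% and 16.3% were lower. At a minimum of 50 CPM it was 0.17, and among cells of at least 2000 genes and 200000 reads it was -4.69. For postnatal day 3 against 2 months, 0 of 7 members were higher and 4 lower (H2-D1, H2-K1, B2m and Tap2), beside 27.7% and 9.98% of 9656 genes, with medians of -2.78 for the members and 0.23 for all. Of the 7, Tap1, Tap2 and Psmb8 reached 10 CPM only at 2 months, with reads in 5, 11 and 2 cells there. The median of the members was thus set in part by the minimum level. For 24 months against postnatal day 3, 4 members reached the level, 3 were higher (H2-D1, B2m and Tapbp) and 0 lower, beside 2.59% and 53.6% of 9062 genes, with medians of 4.18 and -1.94. The 3 comparisons share their samples and are not independent of each other. Only this last pair of ages shares a batch. Within batch 3 (24-month plates 2 and 12, postnatal day 3 plate 9) the log2 differences were 4.10 for H2-D1, 4.73 for B2m and 2.46 for Tapbp, and all 3 met the rule. No plate of another age lies in batches 1, 4 and 5, which hold the 2-month plates, and age cannot be told apart from batch in both comparisons with 2 months.

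Cells with and without Cnmd, the cartilage-specific chondromodulin, differed in H2-D1 within single plates. At 2 months, H2-D1 stood at 1843, 2481 and 1067 CPM in the Cnmd-negative cells of plates 1, 3 and 4 (8, 18 and 16 cells) and at 0, 455 and 299 CPM in the Cnmd-positive cells (7, 52 and 53 cells). The negative cells were higher on all 3 plates, and likewise on the postnatal day 3 plate, at 321 against 108.8 CPM (26 and 42 cells). Median depth was lower in the negative cells of plates 1, 3 and 4, at 109306, 730965 and 524918 gene reads against 2052000, 835629 and 633570. The part of depth in this split was not tested. After thinning, H2-D1 was in 2 of 8 negative and 0 of 7 positive cells of plate 1. The shares of negative and positive cells were 77.8% and 42.3% on plate 3 and 37.5% and 30.2% on plate 4. Thinned shares with H2-D1 were 52.4% (36.4% to 67.996%) and 33.9% (25.3% to 43.5%) at 2 months and 38.5% (20.2% to 59.4%) and 16.7% (6.97% to 31.4%) at postnatal day 3, with overlapping intervals. B2m stood at 210.2, 181.2 and 55.8 CPM in the negative and at 12.8, 27.5 and 42.1 CPM in the positive cells of the 2-month plates. H2-K1 stood at 1397, 313 and 240 CPM in the negative and at 159.1, 235.96 and 411 CPM in the positive cells of these plates, and at 89.3 against 43.1 CPM at postnatal day 3. It was thus higher in the negative cells on plates 1, 3 and 9 and lower on plate 4.

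All 15 cells of 24 months were Cnmd-negative, so the age comparison was repeated without the Cnmd-positive cells, a choice made after these values were seen. H2-D1 at 24 months, 2772 to 7706 CPM, then still lay above the 2-month plates, 1067 to 2481 CPM, with a log2 difference of 1.39 in place of 2.77. H2-D1 at postnatal day 3 remained below the 2-month plates, at -2.48. For B2m the 24-month difference from 2 months became 2.16, again with overlap, and for Tapbp 1.44.

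**Figure D5:**
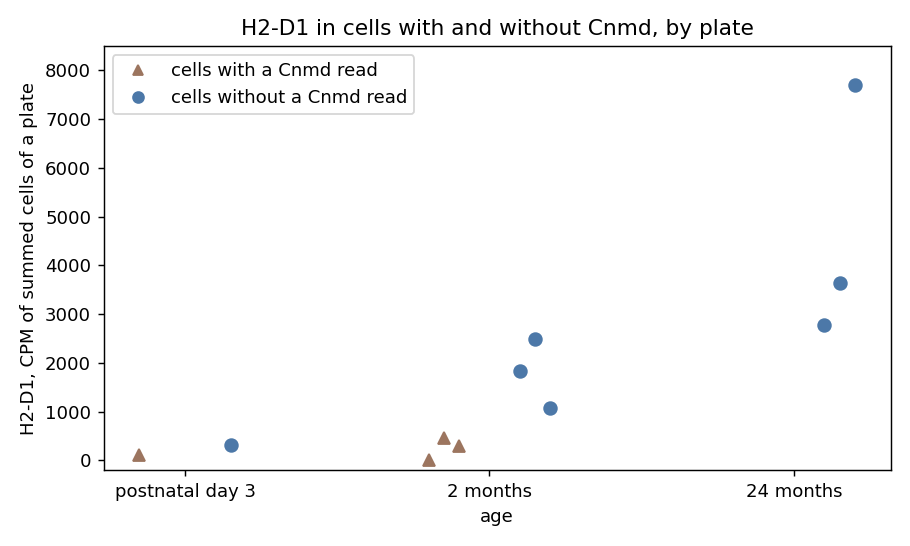
H2-D1 level in summed Cnmd-positive (triangles) and Cnmd-negative cells (circles) of each plate, by age; the 24-month plates hold no Cnmd-positive cells. At 2 months and postnatal day 3 the circles lie above the triangles, and the 24-month circles, from 2772 CPM, lie above the 2-month circles, up to 2481 CPM.

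Around the members, other genes of the pathway mostly did not meet the rule at 24 against 2 months. Of the 6 chaperones and trimming enzymes of peptide loading, 5 were tested and 1 was higher (1.54% of all genes), Canx (calnexin, which folds new heavy chains), at 1117, 2514 and 1129 CPM on the 24-month plates against 990, 393 and 424 CPM at 2 months. Canx was also lower at postnatal day 3 (230 CPM) than at 2 months, the same directions as H2-D1. Calr (calreticulin) was at 72.6 CPM ± 71.6 at 24 months, 114.7 CPM ± 33.2 at 2 months (SD, n = 3 plates each) and 125.3 CPM at postnatal day 3. None of 7 proteasome partners met the rule between 24 and 2 months. Psmb5, the standard subunit that Psmb8 replaces, was at 51.02 CPM ± 64.4 at 24 months, 63.6 CPM ± 45.999 at 2 months (SD, n = 3 plates each) and 46.9 CPM at postnatal day 3, and Psmb10, the remaining immunoproteasome subunit, came from 1 cell at 24 months (plate 2, 130 CPM).

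Of the other class I genes, 0 of 6 tested met the rule for 24 against 2 months, with a median log2 difference of 3.44. H2-Q6, H2-Q7, H2-T23, H2-M3 and Cd1d1 reached 10 CPM only at 24 months, with reads in 1 to 4 of 15 cells each. The sign of this median was thus set by the minimum level and is no result about these genes. For postnatal day 3 against 2 months 3 of 4 were higher (H2-Q6, Mr1 and Cd1d1), beside 27.7% of all genes. These 3 reached 10 CPM only at postnatal day 3, with reads in 2, 4 and 3 of 68 cells. Their direction was thus also set by the minimum level. H2-T22, at 33.7 against 14.97 CPM, reached it at both ages and did not meet the rule. Mr1, which presents vitamin metabolites, was at 27.3 against 1.13 CPM, with reads in 3 cells at 2 months. Among the 18 interferon receptors, kinases and factors acting on class I promoters, 17 were tested for 24 against 2 months, 0 were higher and 3 lower, beside 1.54% and 29.6% of all genes. Their median log2 difference was 1.65, against -1.56 for all genes. The 3 lower genes were Ifnar1, a type I interferon receptor chain, the kinase Tyk2 and the promoter factor Rfxap, each without a read at 24 months and at 37.5, 32.5 and 22.95 CPM at 2 months. Irf1, an interferon response factor, and Ifngr1, an interferon gamma receptor chain, each had reads in 1 of 15 cells at 24 months, both on plate 2 (617 and 341 CPM). At 2 months they were found in 20 and 15 cells and at postnatal day 3 in 5 and 13 of 68. For postnatal day 3 against 2 months 4 of 14 tested regulators were higher and 0 lower, a share of higher genes near the 27.7% of all genes. Among them was Rela, an NF-kappaB subunit, at 236.1 against 62.9 CPM.

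Of the 28 interferon-induced genes outside class I, 13 were tested for 24 against 2 months, 0 were higher and 3 lower, beside 1.54% and 29.6% of all genes, and their median log2 difference was 0.87 against -1.56 for all. Ifi27, named after its values were seen, stood at 580.3, 382 and 30.8 CPM on the 24-month plates 2, 5 and 12 and at 0.146, 29.5 and 66.5 CPM on the 2-month plates 1, 3 and 4, with plate 12 lowest among the 24-month plates as for B2m, and did not meet the rule. The 3 lower genes were Ly6e (0 against 114.9 CPM), Ifi35 (0 against 77.9 CPM) and Irgm1 (0 against 13.01 CPM, named after its values were seen). For postnatal day 3 against 2 months 1 of 11 was higher and 2 were lower (27.7% and 9.98% of all genes), Ifi35 at 2.36 CPM and Lgals3bp at 40.4 against 208.2 CPM. For 24 months against postnatal day 3, 0 of 12 tested were higher and 3 lower, beside 2.59% and 53.6% of all genes, and their median log2 difference was 2.37 against -1.94 for all. The class II genes gave 0 higher and 1 lower of 2 tested for 24 against 2 months (1.54% and 29.6% of all genes), H2-DMb1 (0 against 106.2 CPM), and Cd74, the class II invariant chain, had no read at 24 months or postnatal day 3 and 7.16 CPM ± 10.7 (SD, n = 3 plates) at 2 months.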

How the data were processed

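The values are expected counts per gene symbol that the authors deposited as 1 table with a column per well. Per the submitters' processing notes, bcl2fastq 2.18, STAR 2.4 and RSEM 1.2.21 were used with GRCm38.p6; the annotation is not given in the sources used here. Each column was matched to a sample through the plate, the well position, the age and the index sequences, and 1 column was not used. Counts were rounded, the 92 spike-in rows were left out, and CPM were taken from the plate's summed reads over its passing cells. Summed depth was 43.1 M reads (M for mega) at 24 months, 125.3 M at 2 months and 75.5 M at postnatal day 3. An age is the mean of its plates. Folds are log2 ratios of the means with 1 CPM added. For shares, cells were thinned to 50000 reads with a fixed seed. The size rule and the thinning were tested on simulated counts with known changes and counting error only, around a common level for all plates. The spread between cells was not simulated, so this does not measure false calls that come from few cells. Named from other pathway lists were up to 5 genes a list that met the size rule with at least 20 CPM, and some preset genes. The members, the lists and the rules were chosen with earlier results of these data known. Positions, exon lengths and 50-base stretches came from GENCODE for GRCm38, promoters from RefSeq for GRCm38.p6. TMM factors were taken from edgeR 4.0.16 under R 4.3.3, figures drawn with matplotlib 3.10.9, and the rest computed in pandas 2.3.3, numpy 2.4.6 and scipy 1.17.1 under Python 3.11.15.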

Additional observations from a re-analysis of the deposited data

Results flagged for a closer look

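The wells that did not pass the cell filter took no part in the comparisons. With plates pooled, those of 24 months held H2-D1, H2-K1 and B2m reads in larger shares than those of the younger ages. Of the 91 such wells on each 24-month plate, 20.1% over the plates had a read of H2-D1, 17.2% of H2-K1 and 20.1% of B2m, at 6104, 2025 and 920 CPM of summed wells. In such wells of 2 months (81, 26 and 26 on plates 1, 3 and 4) the shares were 12.03%, 7.52% and 9.02% (2495, 1772 and 138.3 CPM), and in the 27 of postnatal day 3 they were 0% (up to 11.1%), 3.70% and 14.8%. By plate, the shares of 24 and 2 months overlapped. H2-D1 was in 14.3%, 16.5% and 29.7% of these wells on the 24-month plates 2, 5 and 12. On the 2-month plates 1, 3 and 4 it was in 6.17%, 26.9% and 15.4%. In the same order of plates, H2-K1 was in 13.2%, 15.4% and 23.1% against 6.17%, 19.2% and 0%. B2m was in 17.6%, 16.5% and 26.4% against 4.94%, 11.5% and 19.2%. The median well held 3337 gene reads at 24 months, 33428 at 2 months and 2506 at postnatal day 3. Blood cell markers summed to 6251 CPM in these 24-month wells and to 2793 CPM in those of 2 months, against 0 in the passing 24-month cells. Of the 55 wells with H2-D1 at 24 months, 11 also held a blood marker, as did 10.6% of all these 24-month wells. Of the 70 passing 2-month cells with H2-D1, 15 held one, as did 18.2% of all passing 2-month cells. The part of blood cells in these reads was not tested.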

How the results depend on the processing

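The calls of H2-D1 for 24 months against both other ages and of H2-K1 for postnatal day 3 against 2 months held under every alternative tried (scaling, cell filters, weighting, thinning, added CPM, minimum level, rounding, cells without Ptprc or Cnmd, left-out plates). Of 7 members tested for 24 against 2 months, the number higher was 2 in the main setting and 2 to 4 with single plates left out, the 4 coming without plate 12, which added H2-K1 and B2m. The number lower was 1, and 1 to 2 with single plates left out, the 2 coming without plate 1. Cells of at least 2000 genes and 200000 reads, of which 24 months had 1, gave 0 lower for 24 against 2 months and 2 lower in place of 4 for postnatal day 3 against 2 months; Tapbp for 24 against 2 months then turned to -0.73. A count can hide a change of genes: with at least 500 genes, 2 members were again higher at 24 months, H2-D1 and B2m in place of H2-D1 and Tapbp. TMM factors moved the median log2 difference of all genes from -1.56 to -1.92 for 24 against 2 months and from 0.23 to 0.10 for postnatal day 3 against 2 months, and every tested member kept its call. The cause of these changes was not tested. No paired analysis was possible because the labels name no animal and plates of different ages share no number. With 15 cells at 24 months, a gene seen in 0 cells may be present in up to 20% of them.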
